A study of Mus musculus with 4 samples.

Results

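The miRNAs miR-741, miR-463, miR-880, miR-878, miR-881 and miR-871 lie side by side on the mouse X chromosome, between the genes Slitrk2 and Fmr1, and belong to a group of fast-evolving miRNAs known from male germ cells. Their mature forms were measured in wild-type (WT) R1 mouse embryonic stem cells (ESCs) and in R1 ESCs in which Dnmt1, Dnmt3a and Dnmt3b are all knocked out (triple-knockout, TKO). By the labels, both lines had been differentiated for 4 days when RNA was taken. All probes bearing these names, with or without an arm, were taken, which gave 7 of the 566 mouse miRNAs measured, from 6 precursors. The cluster was selected on the difference in level between TKO and WT cells, for which mmu-miR-880 and mmu-miR-881 were picked out, so the members' differences are given below as a description with no test. In TKO cells 6 of the 7 had both values above both WT values, an order seen in 17.3% of all mouse miRNAs, and mmu-miR-463 did not at the deposited scaling. Ratios of the means ran from 3.04 to 17.4 for these 6, but only mmu-miR-741 had a WT mean above the background limit described below.

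A miRNA begins as a hairpin within a longer transcript. Drosha cuts the hairpin out in the nucleus, Dicer trims it in the cytoplasm, and a strand of the resulting duplex guides Argonaute to mRNAs, which it reads mainly with its seed near the 5′ end. Many germline genes, on the X chromosome and elsewhere, carry DNA methylation in somatic and stem cells. Of the enzymes missing in TKO cells, DNMT1 copies methylation after replication, and DNMT3A and DNMT3B lay it down on unmethylated DNA.

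WT and TKO cells each had 2 samples, described as biological replicates. Both genotypes were grown on gelatin with serum and leukemia inhibitory factor, and the labels state that all cells were differentiated for 4 days before RNA was taken. Both lines were given to the study by another laboratory, and the TKO line had first been made elsewhere. Any other difference between the lines cannot be told apart from the loss of the DNMTs. No mRNA was measured here, so the deletions could not be checked in these samples. Levels are normalized counts of the NanoString nCounter assay, in which a barcoded probe counts molecules of each miRNA directly. Probes for 33 viral miRNAs served as background. They ranged from 7.77 to 102.7 normalized counts over all samples, and their mean plus 2 SD, 69.2 normalized counts, is the background limit used below. miR-294, the highest ESC marker, stood between 87839 and 102133 normalized counts in the 4 samples, and 8 of 11 miR-290 family probes passed the limit. The let-7 family, which rises as cells differentiate, had 7 of 8 probes above it. In bulk RNA, fewer cells of a type and less RNA per cell cannot be told apart.

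The 12 mature sequences of the 6 precursors are printed because they show how far the members differ in the bases that select targets. Sequences come from RefSeq on GRCm38.p6, 5′ to 3′, with the seed (bases 2 to 8) in capitals. The probe names give the arm only for miR-878, so for the other 5 precursors both arms are shown and the arm measured is not given by the files.
mmu-miR-741-3p: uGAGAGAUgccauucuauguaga
mmu-miR-741-5p: uACGUAGAuugguaccuaucaug
mmu-miR-463-3p: uGAUAGACaccauauaagguag
mmu-miR-463-5p: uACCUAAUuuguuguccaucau
mmu-miR-880-3p: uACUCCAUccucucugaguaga
mmu-miR-880-5p: uACUCAGAuugauaugaguca
mmu-miR-878-3p: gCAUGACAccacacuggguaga
mmu-miR-878-5p: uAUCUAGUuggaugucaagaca
mmu-miR-881-3p: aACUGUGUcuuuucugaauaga
mmu-miR-881-5p: cAGAGAGAuaacagucacaucu
mmu-miR-871-3p: uGACUGGCaccauucuggauaau
mmu-miR-871-5p: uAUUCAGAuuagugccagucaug

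The 12 arms held 12 distinct seeds, so no seed was shared within the cluster. Among all 1679 mouse mature sequences of the RefSeq table, a member's seed recurred for miR-871-5p only, in miR-743a-5p, which lies in the same X-linked locus. miR-880-3p and miR-881-3p, the 3p arms of the members with the largest differences, matched at 15 of 22 positions at the best offset of up to 3 bases, although their seeds differ. Such a match was not particular to this pair. Within the cluster miR-741-3p and miR-463-3p also matched at 15 positions, and miR-741-5p and miR-871-5p at 16. With the rest of the locus, miR-871-5p and miR-743a-5p matched at 20. The letters GACACCA were found in miR-463-3p and miR-878-3p. They occurred, on the RNA strand as printed, in 7 of the 1679 mature sequences (0.417%), 3 of them in this locus.

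All 6 precursors are encoded on the minus strand of the X chromosome within 13700 bp (chrX:66796805-66810504, GRCm38.p6), and the annotation lists no other gene there. In order of coordinate, Mir741 (chrX:66796805-66796875) is followed after 2347 bp by Mir463 (chrX:66799223-66799297) and after a further 1232 bp by Mir880 (chrX:66800530-66800607). Mir878 (chrX:66801508-66801585) comes 900 bp on, and Mir881 (chrX:66801944-66802021) only 358 bp after it. A gap of 8406 bp then separates Mir871 (chrX:66810428-66810504) from the other 5. Slitrk2 ends 135 kb before the cluster and Fmr1 starts 1868 kb after it.

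Hairpins of Mir880 and Mir881 are shown with both mature arms in capitals, since these members had the largest differences and their hairpins are the most alike within the cluster.
Mir880: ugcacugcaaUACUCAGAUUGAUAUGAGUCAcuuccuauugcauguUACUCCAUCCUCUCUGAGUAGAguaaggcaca
Mir881: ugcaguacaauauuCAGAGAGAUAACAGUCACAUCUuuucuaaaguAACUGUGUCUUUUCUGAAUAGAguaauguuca

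Aligned end to end, the Mir880 and Mir881 hairpins were 69.2% identical, the highest value among the 15 pairs of members, which ranged from 50.0% with a median of 59.5%. Of the other precursors of the locus, those most alike to Mir871, Mir878 and Mir741 matched them better than any member did, with Mir743b at 75.6% identity to Mir871 and 67.1% to Mir878, and Mir743 at 66.2% to Mir741. Mir883b came near the value of the Mir880 and Mir881 pair, at 68.4% to Mir880 and 66.25% to Mir881. The arms of miR-883b had log2 differences between TKO and WT of only 0.16 (3p) and 0.14 (5p). CpG, the dinucleotide that DNMTs methylate, is rare in these hairpins. Mir741 and Mir878 each hold 1 CpG and the other 4 hold none, whereas 66.5% of the 1005 mouse hairpins in the table hold at least 1. The hairpins holding a CpG are printed with it in capitals.
Mir741: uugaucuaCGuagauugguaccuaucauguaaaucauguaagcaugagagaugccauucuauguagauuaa
Mir878: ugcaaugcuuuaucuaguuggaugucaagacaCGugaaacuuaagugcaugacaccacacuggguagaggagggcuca

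In the study's grouping of mouse precursors by CpG methylation around the hairpin, miR-463, miR-880 and miR-881 were in the flat group and miR-871 in the depleted group. The study calls both groups unmethylated, a name that refers to the pattern at the hairpin borders. Only its depleted group was defined by absence of methylation. Flat loci were those left over, and the study elsewhere describes them as evenly methylated along their length. The name therefore does not show that the flat members lack methylation in WT cells. The grouping also came from bisulfite data on mouse R1 ESCs, whereas the labels give 4 days of differentiation for the cells measured here. miR-741 and miR-878 were not found in that list. miR-463, the member with the smallest difference, was in the same group as miR-880 and miR-881.

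mmu-miR-880 had the largest log2 difference of all 566 mouse miRNAs. It measured 22.5 and 12.6 normalized counts in WT against 333 and 278 in TKO cells. The WT values lay within the viral probes, of which 19 and 27 of 33 were at least as high, and the TKO values lay above every viral probe. On the log2(normalized count + 1) scale the difference was 4.09 (SE 0.31). SEs here and below are those of the limma fit described below, moderated by the spread of all 566 mouse miRNAs. They are not the replicate error of each miRNA alone. The means were 17.6 ± 6.96 in WT and 305 ± 39.2 in TKO cells (SD, n = 2 each), a 17.4-fold ratio of the means. The WT denominator is a background level, recovered from 21 and 13 raw counts with 95% Poisson intervals of 13.0 to 32.1 and 6.92 to 22.2, which cover counting error only.

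mmu-miR-881, encoded nearest to miR-878, followed miR-880 closely. It measured 30.0 and 18.4 normalized counts in WT against 287 and 294 in TKO cells. Its WT values were again within the viral range, with 18 and 21 viral probes at or above them, and its TKO values were clear of it. The log2 difference was 3.57 (SE 0.27), the third largest among mouse miRNAs, from a mean of 24.2 ± 8.14 to 290.2 ± 5.04 (SD, n = 2 each). The ratio of miR-880 to miR-881 was 0.75 and 0.685 in WT against 1.16 and 0.945 in TKO cells. With WT values at background, the WT ratios do not compare the 2 miRNAs themselves.

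mmu-miR-741 was the only member above all viral probes in WT cells. It measured 141 and 135 normalized counts in WT against 791 and 849 in TKO cells. Its replicates lay close together in both genotypes, with means of 138 ± 4.42 and 819.8 ± 41.3 (SD, n = 2 each). The log2 difference of 2.56 (SE 0.15) was the 11th largest among mouse miRNAs, and the 682 normalized counts gained were the third largest gain. Its 5.93-fold ratio of the means is the only ratio of the cluster whose WT mean passed the background limit.

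mmu-miR-871, set apart by the 8406 bp gap, measured 56.7 and 33.0 normalized counts in WT against 215.4 and 215.5 in TKO cells. WT values stood at 1.55 and 1.15 times the mean of the viral probes in the same sample, and TKO values at 7.65 and 6.64 times. The WT mean was 44.9 ± 16.8 and the TKO mean 215 ± 0.0141 (SD, n = 2 each), a log2 difference of 2.29 (SE 0.29) and a 4.80-fold ratio. The small SD of the TKO replicates is below the counting error of a single measurement, whose 95% Poisson interval for TKO replicate 1 ran from 190.0 to 249 raw counts, and it should not be taken as the precision of the assay.

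Both arms of miR-878 had probes. mmu-miR-878-3p measured 35.3 and 20.4 normalized counts in WT against 109.7 and 113 in TKO cells. mmu-miR-878-5p measured 25.7 and 28.2 in WT against 90.9 and 72.9 in TKO cells. Neither arm overlapped between genotypes, and all 4 WT values lay below the mean of the viral probes. The log2 differences were 2.01 (SE 0.29) for the 3p arm and 1.56 (SE 0.18) for the 5p arm, with ratios of 3.99 and 3.04. The 3p to 5p ratio was 1.38 and 0.724 in WT against 1.21 and 1.54 in TKO cells, and its ranges overlapped. With all WT values at background, the WT ratios do not compare the arms themselves. In TKO replicate 2, 2 viral probes were at least as high as the 5p arm.

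mmu-miR-463, encoded between miR-741 and miR-880, had the smallest difference of the members. It measured 68.5 and 56.3 normalized counts in WT against 64.2 and 74.0 in TKO cells. The genotypes overlapped at the deposited scaling, and the means of 62.4 ± 8.59 and 69.1 ± 6.88 (SD, n = 2 each) both fell below the background limit. The overlap depends on the scaling. Relative to the mean of the viral probes of the same sample, miR-463 stood at 1.87 and 1.96 in WT against 2.28 and 2.28 in TKO cells, and under sum scaling, viral probe scaling and background subtraction all 7 members had both TKO values above both WT values. Its log2 difference was 0.15 (SE 0.18), in 146th place among the mouse miRNAs. Between 0 and 6 viral probes were as high in each sample, so a low level of miR-463 cannot be separated from probe background here.

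**Figure D1:**
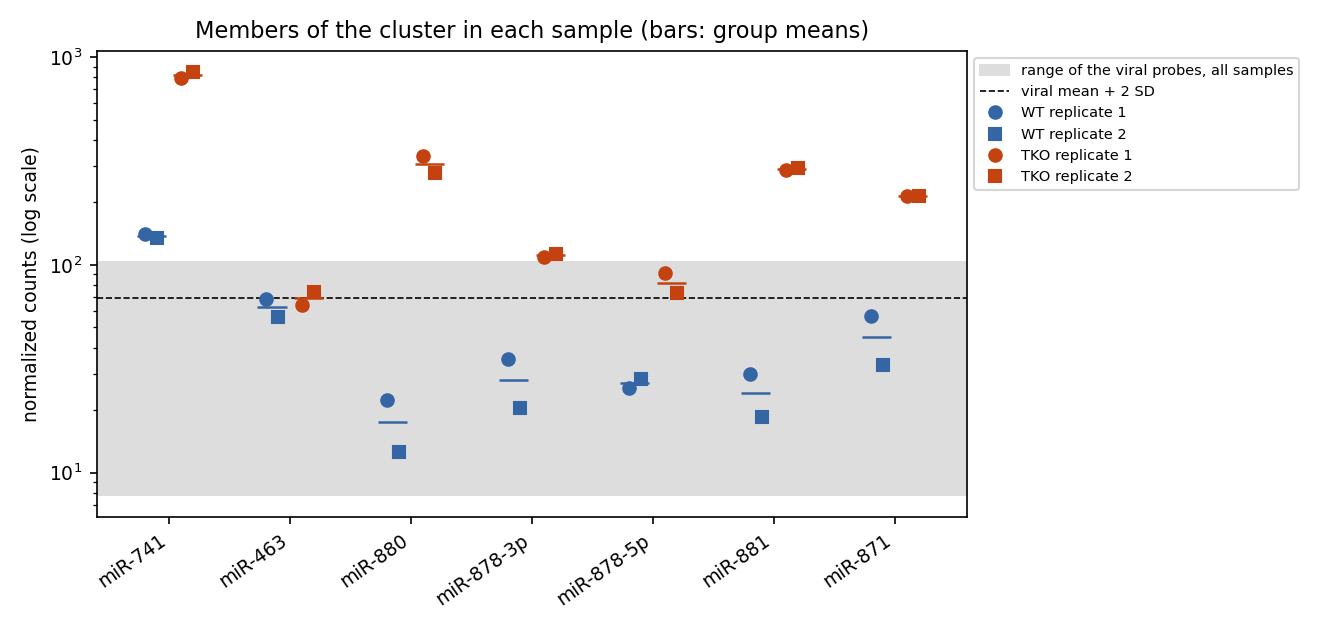
Normalized counts (log axis) of the 7 members in each of the 4 samples, WT in blue and TKO in red, with short bars at the group means. Grey shading spans the 33 viral probes over all samples (7.77 to 102.7) and the dashed line marks 69.2. At this scaling all TKO points lie above both WT points except for miR-463, and of the WT points those of miR-741 alone lie above the shading.

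The plot of members by sample shows that the WT values of every member but miR-741 sit inside the shading of viral probes. Over the 4-sample mean, 5 of 7 members passed the limit. By group mean, 1 member passed it in WT cells and 6 in TKO cells, and the TKO mean of miR-463 missed it narrowly. The members' median log2 difference was 2.29, and that of all mouse miRNAs was -0.12, with 5th and 95th percentiles of -0.87 and 0.88. The members were picked for this contrast, so nothing is read from these values.

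Differences on the log2 scale and in counts ranked the members differently. By log2 difference the order was miR-880, miR-881, miR-741, miR-871, miR-878-3p, miR-878-5p and miR-463. This order was not tested, and part of it depended on the processing. With background subtracted, both miR-878 arms and miR-871 came before miR-741. Without WT replicate 1 miR-871 came before miR-741, and without WT replicate 2 miR-878-5p came before miR-878-3p. By counts gained, miR-741 came first with 682 normalized counts, ahead of miR-880 with 288 and miR-881 with 266. miR-871 gained 171, miR-878-3p 83.3, miR-878-5p 55.0 and miR-463 6.69. Probes may differ in efficiency, so this order is that of the readings and not of the molecules gained.

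**Figure D2:**
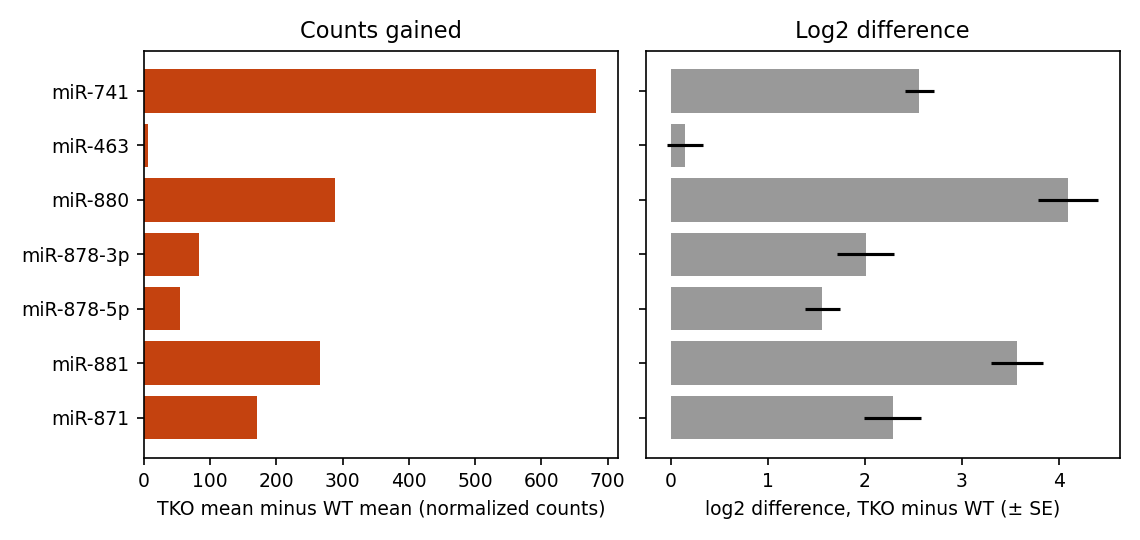
Left, TKO mean minus WT mean in normalized counts for each member. Right, log2 difference between TKO and WT with the moderated SE of limma (n = 2 per genotype). miR-741 gained the most counts (682), while miR-880 had the largest log2 difference (4.09) from a WT level at background.

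Summed over the 7 members, WT replicates held 379.9 and 304 normalized counts and TKO replicates 1891 and 1895. As a share of all mouse counts this was 0.0645% and 0.0511% in WT against 0.375% and 0.329% in TKO cells. The cluster was thus a minor part of the miRNA pool in both genotypes. miR-741 made up 37.2% and 44.4% of the sum in WT against 41.8% and 44.8% in TKO cells, so its share overlapped. Without it the sums were 239 and 169 in WT against 1100.0 and 1046 in TKO cells.

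WT replicate 1 read higher than WT replicate 2 for 6 of the 7 members, by a median log2 difference of 0.67. The viral probes differed the same way, with 24 of 33 higher in WT replicate 1 and a median of 0.23, and the median of all mouse miRNAs was 0.12. Between TKO replicates the members' median difference was -0.04, against -0.27 for the viral probes. The part of background in the spread of the WT replicates was not tested. Leaving out WT replicate 2 put the members' median log2 difference at 1.91, and miR-463 then had a log2 difference of 0.01.

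The locus holds 22 miRNA precursors, and 18 further miRNAs of it were measured. For these the comparison of TKO with WT cells was tested with limma over all 566 mouse miRNAs, which called 4.24% of them higher in TKO cells. Of the 18, 9 were called higher at the adjusted threshold of 0.05 and 0 lower, with 9 higher and 1 lower at an unadjusted p under 0.05. limma's voom on the recovered counts called the same 9 higher and 0 lower. Their median log2 difference was 1.15 against -0.12 over all mouse miRNAs. By order of values, 11 had both TKO values above both WT values (17.3% of all mouse miRNAs did), miR-547 had both below, and 6 overlapped. Calls of the 18 numbered 6 higher without WT replicate 1, 4 without WT replicate 2 and 0 without either TKO replicate, where 10 and 9 were higher at an unadjusted p under 0.05.

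On the low-coordinate side the nearest measured neighbour was miR-471, at 4143 bp. It measured 11.8 and 17.5 normalized counts in WT against 141 and 86.8 in TKO cells, a log2 difference of 2.86 (limma, adjusted p = 0.0155). On the other side miR-470, at 3446 bp, measured 15.0 and 21.4 in WT against 96.8 and 71.8 in TKO cells, a log2 difference of 2.16 (limma, adjusted p = 0.0168). Both neighbours rose from WT values within the range of the viral probes. Among the other locus miRNAs the largest log2 difference was that of miR-465c-5p, which went from 28.9 and 31.1 to 492 and 508 normalized counts, 4.02 higher (limma, adjusted p = 0.00228). The smallest was -0.52, for miR-547, with 36.4 and 44.7 in WT against 25.7 and 30.0 in TKO cells (limma, adjusted p = 0.201).

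In the block that holds the cluster, 14 other miRNAs were measured. Of these, the 4 arms of miR-883a and miR-883b had log2 differences of 0.14 to 0.50, near the 0.15 of miR-463. The other 10 all had both TKO values above both WT values, with differences of 0.71 to 4.02, and the 9 called miRNAs were among them. The miR-883 arms were set apart after their values were seen, so the count for the block is 10 of 14. Of all mouse miRNAs, 17.3% had this order. The distal group, on the side of Fmr1, held miR-201, miR-547 and both arms of miR-509, with differences from -0.52 to 1.04, and limma called 0 of these 4.

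**Figure D3:**
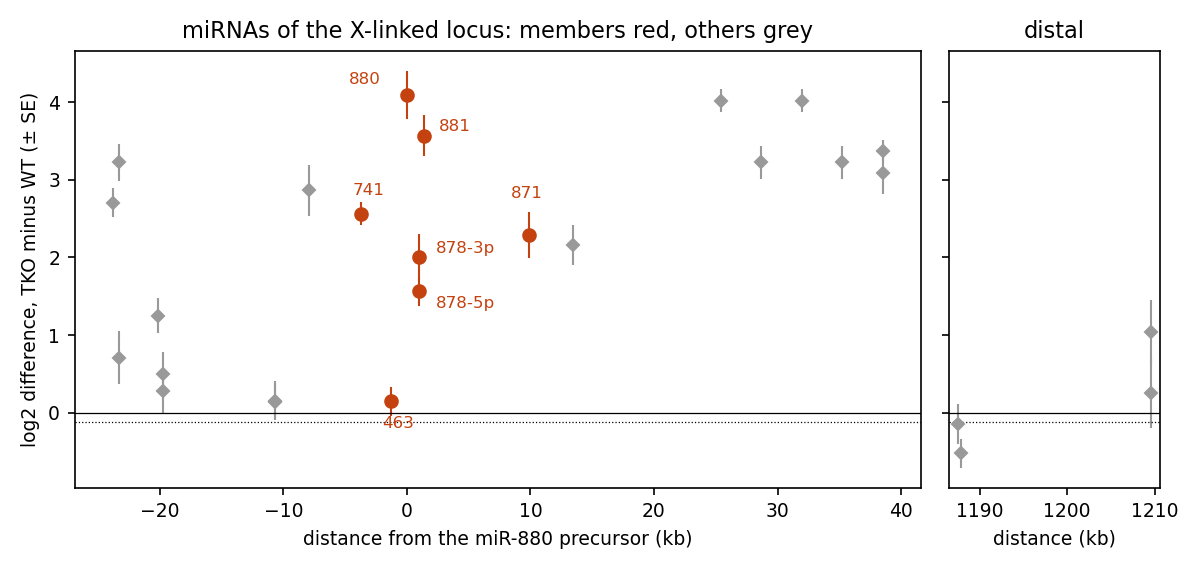
Log2 difference between TKO and WT (points, with the moderated SE of limma, n = 2 per genotype) against distance from the miR-880 precursor in kb. Members are in red and other locus miRNAs in grey. miR-465b-5p and miR-465c-5p are each drawn at both of their precursors, and the dotted line is the median of all mouse miRNAs (-0.12). miR-463 (0.15) lies low between neighbours at 2.56 and 4.09, and the distal group lies between -0.52 and 1.04.

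Patterns over the 4 samples were compared with the mean pattern of miR-880 and miR-881 by the Euclidean distance of log2 values centred on each miRNA's own mean. The nearest miRNAs of the locus were miR-465c-5p at 0.625, miR-465a-5p at 0.661 and miR-465b-5p at 0.723. miR-465a-5p measured 22.5 and 21.4 normalized counts in WT against 235 and 236 in TKO cells, and miR-465b-5p measured 43.9 and 36.9 against 442 and 336. The members other than miR-880 and miR-881 lay farther off, from 1.36 for miR-741 to 3.70 for miR-463, in 138th place among all mouse miRNAs. With 4 samples in 2 groups, this distance mostly measures the size of the difference between genotypes.

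Outside the locus the nearest patterns belonged to miR-302a, miR-302d and miR-367, which share a primary transcript known from pluripotent cells. miR-302a measured 47.1 and 53.4 normalized counts in WT against 503 and 625 in TKO cells, a log2 difference of 3.46 at a distance of 0.800. The log2 differences of miR-302d and miR-367 were 2.25 and 1.93, at distances of 1.67 and 1.95. limma called all 3, with adjusted p-values of 0.00423, 0.00539 and 0.0144. They were picked in these same samples for likeness to a pattern high in TKO cells. The choice itself favours such calls, so nothing further is read from them.

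Markers of other cells were read beside the cluster. Of 8 probes for miRNAs typical of testis germ cells other than this locus (the miR-34b/c and miR-449 families and miR-202), only miR-34c passed the background limit. It measured 419.5 and 629 normalized counts in WT against 840.0 and 747 in TKO cells, with no overlap, a log2 difference of 0.62 that was not called (limma, adjusted p = 0.227). The list summed to 647 and 783 in WT against 1043 and 937 in TKO cells, with 3 probes above and 1 below both WT values, a median log2 difference of 0.03 and 0 called by limma or by voom (0 higher and 1 lower at an unadjusted p under 0.05 with limma). No probe of it was at 0, and the part of germ-cell markers in the differences of the cluster was not tested.

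The ESC list, all of the miR-290 family, summed to 338120 and 332117 normalized counts in WT against 271498 and 295039 in TKO cells, and limma called 0 of its 11 probes, with 0 at an unadjusted p under 0.05, while voom called 3 lower. TKO values were below both WT values for 8 of them, but the share of all mouse miRNAs in this order is not given here. The list's median log2 difference was -0.22, and that of all mouse miRNAs was -0.12, so nothing is read from this count. Its log2 differences ran from -0.41 to 0.19. The fibroblast list (miR-143, miR-145 and the miR-199 and miR-214 probes) summed to 525 and 481 in WT against 423 and 422 in TKO cells, and limma and voom called 0 of its 5 probes, with 1 lower at an unadjusted p under 0.05. Its highest marker, miR-145, measured 239.7 and 201.1 in WT against 198 and 162 in TKO cells. Of the 2 probes of the neuronal list, miR-124 fell, from 499.8 and 457 to 132 and 134 normalized counts (limma, log2 difference -1.84, adjusted p = 0.0062). The other probe overlapped between genotypes, with a log2 difference of -0.29, and was not called. Over all 566 mouse miRNAs limma called 24 lower. Of the 3 muscle markers 0 passed the background limit. Of the 6 blood markers 3 passed it, with 2 above and 2 below both WT values, and limma called miR-150 lower. The highest, miR-142-3p, measured 807 and 761.5 normalized counts in WT against 1159 and 1278 in TKO cells, a log2 difference of 0.63 that was called by voom but not by limma (adjusted p = 0.0944). The let-7 list summed to 1599 and 1654 in WT against 1670 and 1321 in TKO cells, with 1 probe above and 2 below both WT values. Its log2 differences ran from -0.58 to 0.50 with a median of -0.13, and limma called 0 of its 8 probes. The highest of the list, let-7g, also had its lowest log2 difference. It measured 645 and 719.7 in WT against 464.5 and 447 in TKO cells, a log2 difference of -0.58 that was called by voom but not by limma (adjusted p = 0.115). Over all these lists, miR-124 aside, log2 differences lay between -1.18 and 0.72, and their part in the differences of the cluster was not tested.

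**Figure D4:**
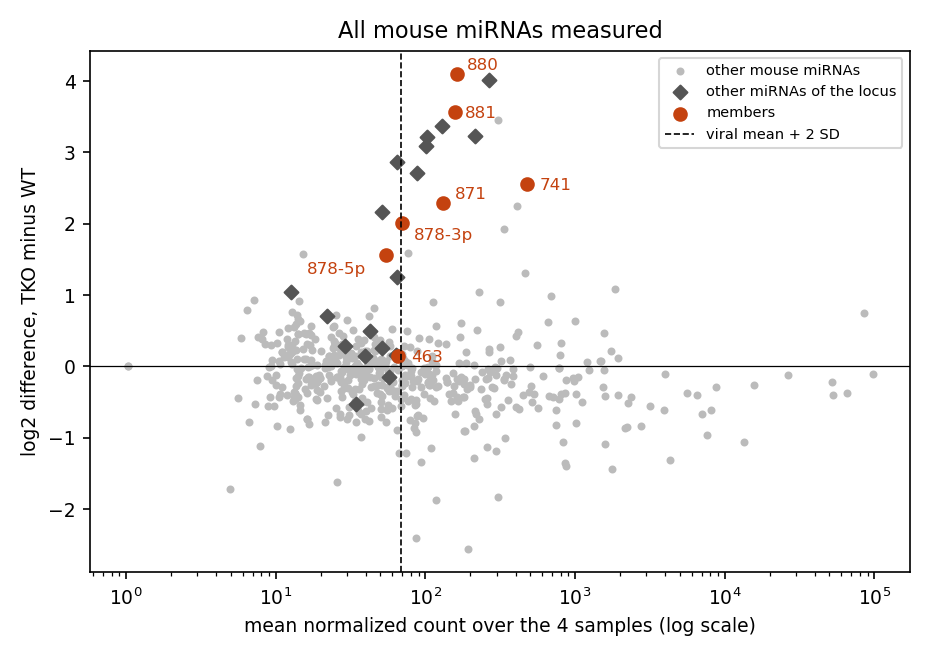
Log2 difference between TKO and WT against the mean normalized count over the 4 samples (log axis) for all 566 mouse miRNAs, with members in red and the other locus miRNAs as dark diamonds. The dashed line marks the background limit of 69.2. miR-880 (4.09) and miR-881 (3.57) lie at the top near modest mean levels, and miR-463 (0.15) lies among the bulk of miRNAs.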

How the data were processed

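Total RNA of 4 samples was profiled with the nCounter miRNA assay. The authors deposited log2 values normalized with the nSolver software. Its version, background handling and scaling probes are not given in the sources used here. The values were turned back to normalized counts, and all were whole multiples of 1 step per sample (tolerance 0.05), from which raw counts were recovered, with totals of 511661 to 613666. Tests used log2(normalized count + 1), a scale that understates changes of low miRNAs. limma (lmFit and eBayes) was run over all 566 mouse probes with Benjamini-Hochberg adjustment. A run of limma on simulated counts, with the same spread set for all miRNAs, does not show how it performs on these samples. The real replicates differed by more than sampling noise.

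Members and lists were chosen with earlier results of these data known. The miRNAs named are all members, the nearest measured neighbour on each side, the extremes among other locus miRNAs, the 3 most similar patterns inside and outside the locus, and the highest marker of a list where above background. miR-150, the distal miRNAs and miR-883 were named after their values were seen. Alternatives covered pseudocount, scaling, background, voom on recovered counts, a replicate block and leaving out each sample. The software was limma 3.58.1 in R 4.3.3, with pandas 2.3.3 and Biopython 1.88 in Python 3.11.15. The study's methylation, ChIP and RNA-seq data were not analysed here.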

Additional observations from a re-analysis of the deposited data

How the results depend on the processing

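No member changed the sign of its log2 difference under any alternative run, and miR-880 and miR-881 stayed first and second. The 6 members with both TKO values above both WT values became 7, with miR-463 added, under sum scaling, viral probe scaling and background subtraction, and were 6 to 7 with a replicate left out. Subtracting the viral mean, with a floor of 1, raised the members' median log2 difference from 2.29 to 4.68, with miR-880 at 7.10 and miR-881 at 7.03, since their WT values fell to the floor. With a pseudocount of 16 miR-880 stood at 3.27 and miR-881 at 2.94. Leaving out a replicate gave medians of 1.91 to 2.59. Of all mouse miRNAs, 24 were called higher and 24 lower in TKO cells. Lower calls numbered 14 with background subtracted, 48 among miRNAs above background, which dropped miR-463 and miR-878-5p, 55 with voom and 10 with the replicate block (20 higher). Leaving out a replicate gave 0 to 13 higher and 0 to 1 lower calls: 13 and 8 higher without WT replicates 1 and 2, and none without either TKO replicate, where limma had 39 and 37 higher at an unadjusted p under 0.05. The lone sample was assumed to vary like the other group. Same-numbered replicates did not deviate together (correlation -0.09), so the numbers were not taken as pairs. The readings of the viral probes limit the WT levels, of which only that of miR-741 passed background.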
